A study of Mus musculus with 10 samples.

Results

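The MHC class II presentation genes were 7 genes: H2-Aa, H2-Ab1, H2-Eb1, H2-DMa, H2-DMb1, Cd74 and Ciita. They were chosen by name, as every array probe whose gene symbol is 1 of the 7 or includes it; the rule uses no measured value, although the 7 genes and the lists of other genes were chosen with earlier results of these data known. They had 11 of the 26423 probes of the array, for 7 of the 20214 gene symbols, and all 11 probes were among the 19976 that passed the filter on low intensity. The study followed gene expression in the mouse heart under pressure overload made by transverse aortic banding (TAB), in which a band narrows the aorta, against a sham operation. RNA was measured on the Mouse Whole Genome OneArray, whose oligonucleotide probes are read in 1 colour (the dye Cy5). Both groups were adult male C57BL/6 J mice, 8 weeks old at surgery, without any introduced allele, and the tissue was the left ventricle. They differed in the operation (TAB or sham), and the RNA was taken 3, 5, 7, 14 or 28 days after surgery. There was 1 TAB and 1 sham sample per day, which makes 5 samples of each operation and 10 in all, and the number of mice in a sample is not stated in the sources used here. The day 14 TAB sample is labelled 15 days in 1 field and 14 in its title, and was taken as day 14.

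Class II molecules carry peptides of engulfed proteins to the surface of antigen-presenting cells, where CD4 T cells read them. An alpha and a beta chain form each molecule (H2-Aa with H2-Ab1, and H2-Eb1 with an E alpha chain that C57BL/6 mice do not make). The invariant chain, encoded by Cd74, fills the groove until the endosome, where proteases trim it and H2-DM, made of H2-DMa and a DM beta chain, helps to exchange the last fragment for a peptide. Ciita is the coactivator that switches the group on, through factors bound to an X box (RFX) and a Y box (NF-Y) in the promoters, and interferon gamma is its best known inducer. In the heart, class II is carried mainly by resident and recruited macrophages and by dendritic cells. In the RefSeq annotation of GRCm38.p6, the 5 H2 members lie near each other on chromosome 17, in the order H2-DMa, H2-DMb1, H2-Ab1, H2-Aa and H2-Eb1, with H2-DMb2 between H2-DMa and H2-DMb1. Ciita and Cd74 lie on other chromosomes.

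The promoter stretches below show letters that 3 of the members share, and where H2-DMb2, which shares 1 probe with H2-DMb1, differs. They come from RefSeq (GRCm38.p6), are written 5′ to 3′ on the strand of the gene, and have the letters GNAAC of the X box core and GATTGG of the Y box in capitals. The search ran over the 300 bases around each transcript start, for an X core followed by a Y box with 15 to 40 bases between, on either strand; the letters of the motifs do not overlap. Promoter windows were at hand for 4 of the 7 members.
H2-Aa, chr17:34287858-34287919, minus strand: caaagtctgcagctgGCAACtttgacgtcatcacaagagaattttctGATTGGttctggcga
H2-Eb1, chr17:34305761-34305821, plus strand: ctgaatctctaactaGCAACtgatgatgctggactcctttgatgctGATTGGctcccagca
H2-DMb1, chr17:34153082-34153143, plus strand: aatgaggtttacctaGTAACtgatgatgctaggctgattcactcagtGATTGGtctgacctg
H2-DMb2, chr17:34145111-34145172, plus strand: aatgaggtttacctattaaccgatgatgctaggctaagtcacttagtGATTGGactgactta

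The pair was found in 3 of the 4 members with a window, H2-Aa, H2-Eb1 and H2-DMb1, and in 1.45% of the 32851 promoter windows of the whole table. The Y box alone was in 16.1% of all windows and the X core alone, on its short letters, in 84.8%. The X core began 81, 91 and 94 bases before the transcript start of H2-Aa, H2-Eb1 and H2-DMb1, and the Y box 49, 60 and 62 bases before it. Between them lay 27, 26 and 27 bases. Of 4 other class II genes with a window, H2-Oa, H2-Ob and H2-Eb2 held the pair too. Neither of the 2 windows of H2-DMa held it. The H2-DMb2 window held the Y box without an X core at that distance, although 54 of the 62 bases shown are the same as in H2-DMb1. A match is a description of letters, and no match says only that these letters are not in the window.

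**Figure D1:**
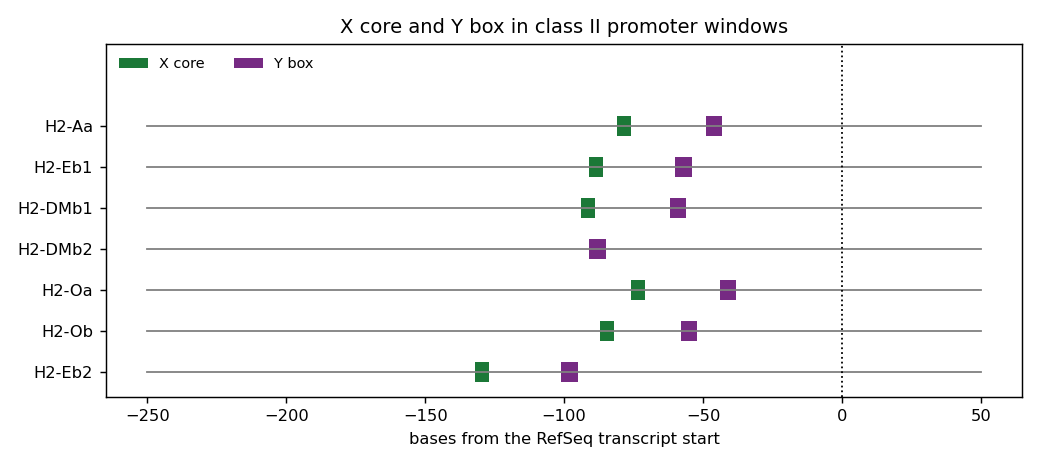
Position of the X core and of the Y box in 7 class II promoter windows, in bases from the RefSeq transcript start (dotted line at 0, grey line for the 300-base window). In the 6 genes with both, the X core lies farther from the start than the Y box by about the same distance, and H2-DMb2 has the Y box without an X core at the searched distance from it (an X core elsewhere in its window is not drawn).

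The class II genes were brighter in TAB than in sham hearts for most probes on most days, but no member probe passed the test as higher. The values are normalized intensities, that is, intensities scaled to a common median on each array and then quantile normalized over the 10 samples. The average TAB effect is the mean log2 ratio of TAB over sham over the 5 days, tested with limma. Each day was a block, and p-values were adjusted over 18074 probes with a symbol (Benjamini-Hochberg, threshold 0.05). The days serve as replicates, so the spread includes time after surgery, and the p-values measure only the spread between these samples. By this test 0 of the 11 member probes were called higher, where 8.88% of all probes were, and 1 was called lower, where 7.64% of all probes were. With the quantile step run within each operation, a reading that the study's methods allow, 2 were called higher (H2-Eb1 PH_mM_0015054 and Ciita, limma adjusted p = 0.0400 and 0.0498). At an unadjusted p under 0.05, 5 of the 11 were higher (17.1% of all probes) and 2 lower (18.1%). Every TAB sample was above every sham sample for 0 of the 11 (9.57% of all probes). The median log2 effect of the 11 probes was 0.65.

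H2-Aa encodes the alpha chain of the A molecule. Its intensity in TAB hearts was 8148, 16728, 10583, 8502 and 8801 on days 3, 5, 7, 14 and 28. In sham hearts it was 8513, 4561, 5497, 4800 and 5418 on the same days. The TAB sample of day 5 was the highest of all and the sham sample of day 3 stood above the other 4 sham samples, inside the range of the TAB group, so the groups overlapped. H2-Aa was 1.81-fold higher in TAB on average, with a 95% interval of 1.16 to 2.82. The log2 effect was 0.86 (SE 0.26, n = 5 days), higher on 4 of 5 days, with a limma adjusted p of 0.0730, which missed the threshold. It passed in 7 of 17 alternative settings, among them the fit with no day block (limma adjusted p = 0.0265).

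H2-Ab1 encodes the beta chain of the same molecule. Its TAB intensities were 486, 847, 485, 356 and 469. Its sham intensities were 567, 222, 293, 223 and 287. The profile had the form of that of H2-Aa, with the highest TAB sample on day 5 and a sham sample of day 3 above every TAB sample but that one. The average was 1.70-fold higher in TAB (log2 effect 0.76, SE 0.29, higher on 4 of 5 days, limma adjusted p = 0.117).

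H2-Eb1 encodes the beta chain of the E molecule and had 2 probes that differed. With probe PH_mM_0015054, TAB intensities were 3150, 4819, 2962, 2768 and 3137, and sham intensities 3030, 1491, 1775, 1481 and 1702. TAB was higher on all 5 days, by as little as 0.06 on the log2 scale on day 3 and by 0.74 to 1.69 on the others, and only the sham sample of day 3 fell within the TAB range. The average was 1.81-fold higher (log2 effect 0.85, SE 0.23), and its limma adjusted p of 0.0520 fell just short. It passed in 8 of 17 alternative settings, with 0.0225 as the limma adjusted p without the day block. The other probe, PH_mM_0006643, was dim, with TAB intensities of 36.1 to 54.7 and sham intensities of 37.4 to 77.3. It did not follow the first (log2 effect −0.22, SE 0.15, limma adjusted p = 0.336).

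H2-DMa encodes the alpha chain of the peptide exchange molecule H2-DM. Its TAB intensities were 76.9, 109, 81.0, 41.0 and 71.9. Its sham intensities were 60.0, 10.7, 42.9, 16.01 and 25.3, and on days 5 and 14 the scanner software had not found the spot, so that 3 of 5 sham samples measured it. TAB was higher on all 5 days, and the groups overlapped because the sham samples of days 3 and 7 exceeded the TAB sample of day 14. The fitted average was 2.82-fold higher (log2 effect 1.50, SE 0.41, limma adjusted p = 0.0566), and it rests in part on values near background. With 50 added to the intensities, the log2 effect shrank to 0.65 (SE 0.16, limma adjusted p = 0.0236).

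H2-DMb1 encodes a beta chain of H2-DM. With its own probe, mMR027912, TAB intensities were 863, 1290, 1043, 661 and 515, and sham intensities 672, 409, 524, 476 and 604. TAB stood above sham on the first 4 days, most on day 5, and below it on day 28. The average did not pass the test (log2 effect 0.65, SE 0.27, limma adjusted p = 0.145). The probe that the array assigns to both H2-DMb2 and H2-DMb1 went the other way, with TAB intensities of 599, 713, 452, 452 and 772 and sham intensities of 1085, 883, 883, 597 and 757. TAB was lower on 4 of 5 days (log2 effect −0.50, SE 0.17, limma adjusted p = 0.0943). H2-DMb2 is a neighbouring DM beta gene, and which of the 2 genes the shared probe measured cannot be told apart.

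Cd74 encodes the invariant chain and had 3 probes, 2 of which moved with the H2 genes. With PH_mM_0016294, TAB intensities were 618, 1397, 867, 578 and 632, and sham intensities 1008, 607, 590, 299 and 329. With mMC024080, they were 521, 1181, 700, 714 and 700 in TAB and 882, 482, 554, 321 and 361 in sham. In both, TAB was below sham on day 3 and above it on the 4 later days. Their averages were 0.59 (SE 0.29, limma adjusted p = 0.200) and 0.60 (SE 0.32, limma adjusted p = 0.231) on the log2 scale.

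The third probe of Cd74, PH_mM_0012569, was the 1 member probe called, and it was called lower. Its TAB intensities were 382, 307, 423, 391 and 495, and its sham intensities 573, 514, 720, 601 and 729. Every sham sample was above every TAB sample, which held for 7.59% of all probes. The log2 effect was −0.65 (SE 0.10, lower on 5 of 5 days, limma adjusted p = 0.0178), so sham was 1.57-fold above TAB. Without day 3, day 5 or day 7 the adjusted p was 0.0703, 0.0642 and 0.0784, and the call was lost, although the effect stayed between −0.67 and −0.63. The direction for Cd74 thus depended on the probe, and the mean of its 3 probes gave a log2 effect of 0.18 (limma adjusted p = 0.585). The probe sequences were not used here, so which transcripts each probe binds was not tested.

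Ciita, the coactivator of the group, was near background. The spot was found on the TAB arrays of days 5 and 7, with intensities of 34.5 and 146, and on no other array of either operation. On the arrays where it was not found its intensity was 3.62 to 19.8 in sham and 11.8 to 14.4 in TAB. With each sham value raised to at least the lowest found intensity of its array, Ciita was 2.82-fold higher in TAB, from means of normalized log2 values. The TAB mean includes the 3 arrays on which the spot was not found, at their background values, so this fold is not a lower limit. The fitted log2 effect, without that floor, was 1.79 (SE 0.48, limma adjusted p = 0.0527). With 50 added to the intensities it was 0.51. 2 of 5 TAB samples and 0 of 5 sham samples measured it.

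**Figure D2:**
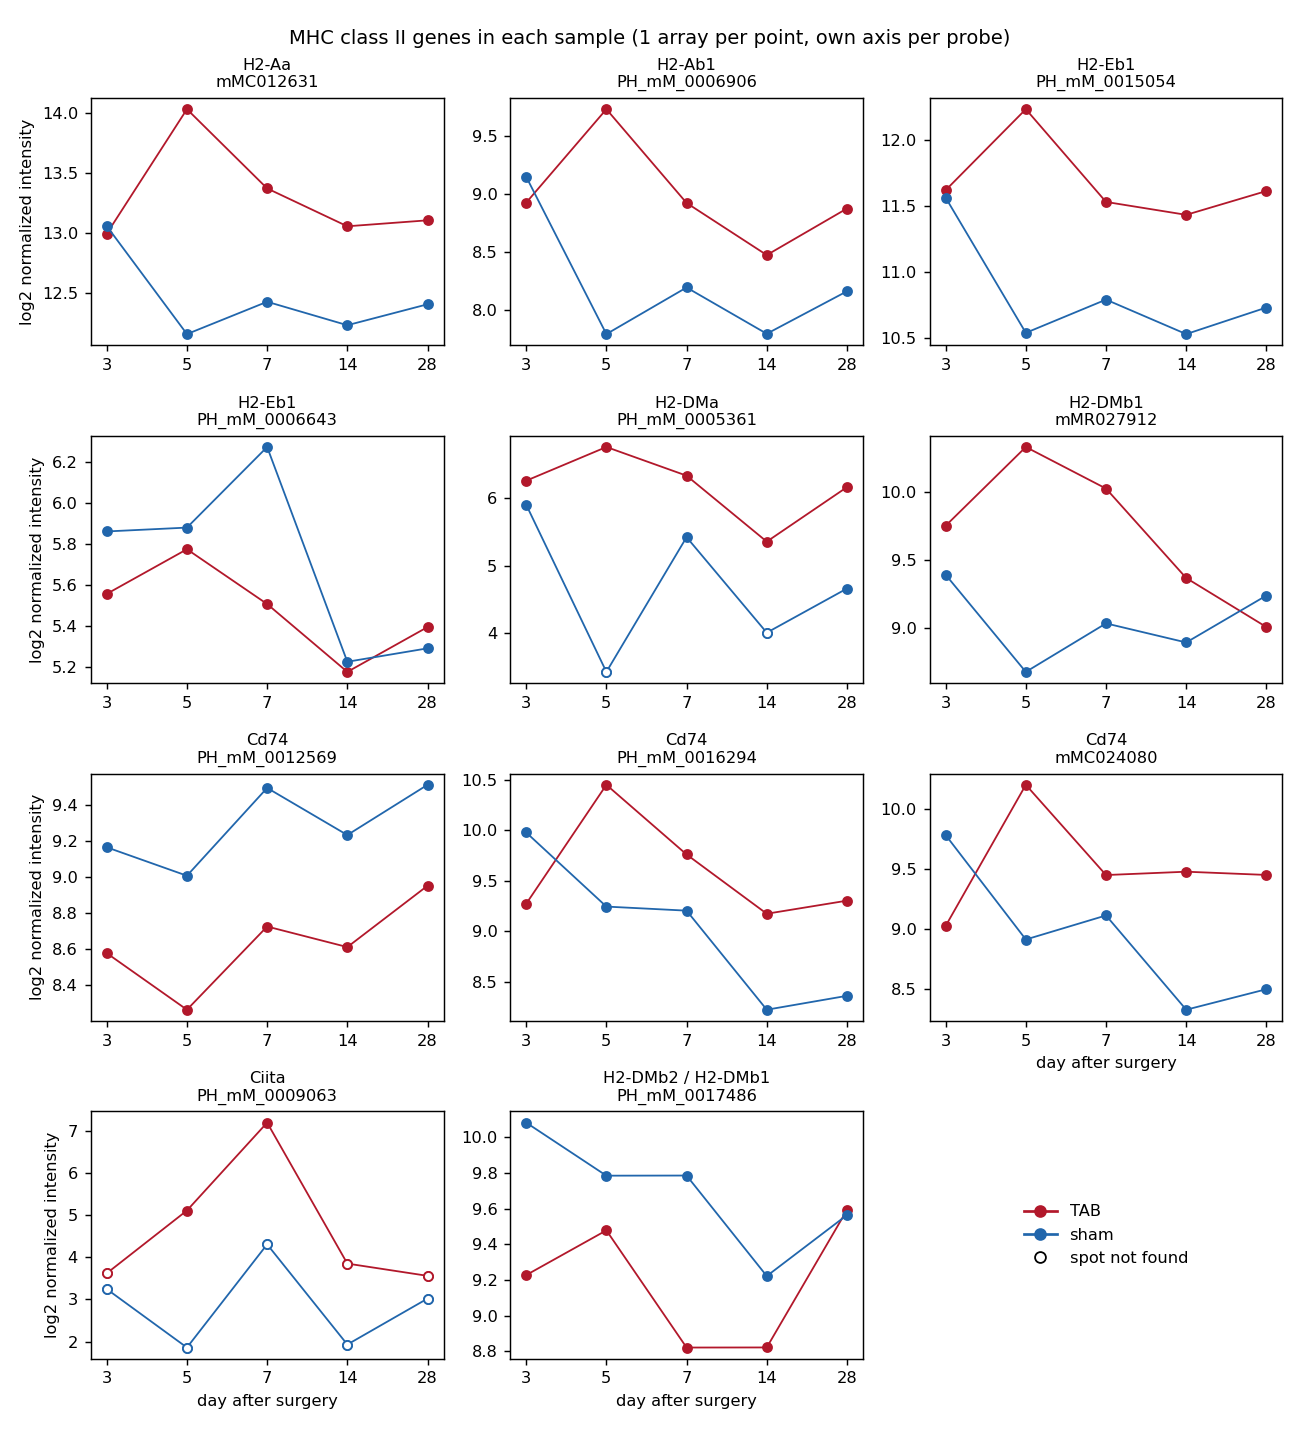
Normalized intensity on the log2 scale of each of the 11 member probes by day after surgery, TAB in red and sham in blue, 1 array per point; each probe has an axis of its own, and open circles are arrays on which the spot was not found. H2-Aa, H2-Ab1, H2-Eb1 (PH_mM_0015054) and 2 of 3 Cd74 probes show the TAB peak on day 5 and the high sham sample of day 3.

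**Figure D3:**
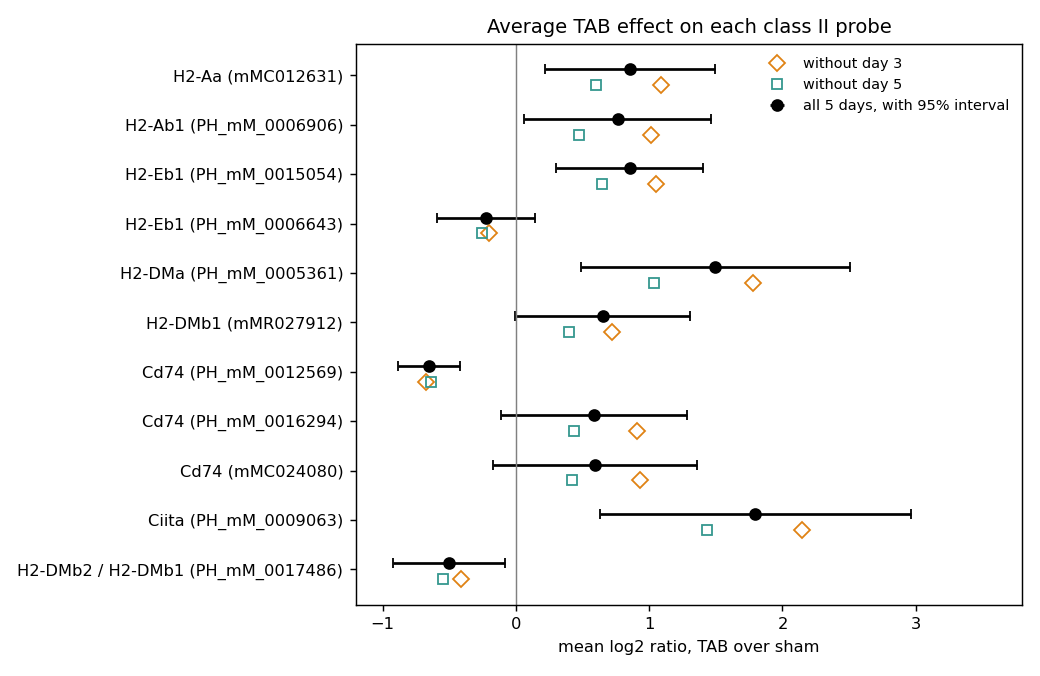
Average log2 ratio of TAB over sham for each member probe over the 5 days (black points, bars are 95% intervals of the limma fit) and the same average without day 3 (open diamonds) or without day 5 (open squares). 8 probes lie above 0, 3 below, and the 7 that moved together and Ciita lie farther above 0 without day 3 and nearer to it without day 5.

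On 4 of the 5 days most class II probes were brighter in TAB. TAB was above sham on each of days 5, 7, 14 and 28 for 7 of the 11 probes, where 18.8% of all probes did so, and for 4 of these 7 (H2-Aa, H2-Ab1 and 2 of Cd74) it was below sham on day 3, where 2% of all probes did both. The median log2 ratio of the 11 probes was −0.22 on day 3, 1.66 on day 5, and then 0.73, 0.82 and 0.70 on days 7, 14 and 28. A single day has 1 sample per operation, so these ratios have no replicate check. The patterns over days given here were not set in advance. Beyond 2 SDs of the day's log2 ratios over all probes, the threshold the study used for a differentially expressed gene, lay H2-Aa, H2-Ab1, H2-DMa and Ciita on day 5 (4 of 11 probes, where 4.01% of all probes did). On days 7 and 14 it was Ciita alone (3.94% and 3.37% of all probes), and on day 28 H2-DMa alone (3.4%). The Ciita spot was found on neither array of day 14 and on no sham array, so its ratio is one of background values on day 14 and has a background value below it on days 5 and 7; that of H2-DMa on day 5 has one too. On day 3 no member probe did (3.2%). Below minus 2 SDs lay no member probe on any day, where 2.04%, 1.5%, 1.55%, 2.31% and 2.43% of all probes did, in the order of the days.

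The sham sample of day 3 was the highest of the 5 sham samples for 8 of the 11 probes, where this held for 21.5% of all probes. It stood above the mean of the other 4 sham samples by 1.68-fold for H2-Aa, 2.23-fold for H2-Ab1, 1.89-fold for H2-Eb1, 2.89-fold for H2-DMa, 1.35-fold for H2-DMb1, and 2.33-fold and 2.10-fold for 2 probes of Cd74. The folds of H2-DMa, here and over the later days, include the sham arrays of days 5 and 14, where its spot was not found, and rest in part on values near background. In TAB the sample of day 5 was the highest for 8 probes (19.4% of all probes). Both held for 7 probes, where 5.02% of all probes had both. These patterns were not set in advance, and the 7 probes correlate with each other (Pearson's r of 0.64 to 0.97), so the shares are a description. Over the 4 later days alone, the mean TAB ratio was 2.12-fold for H2-Aa, 2.02-fold for H2-Ab1, 2.08-fold for H2-Eb1 (PH_mM_0015054) and 3.44-fold for H2-DMa. It was 1.88-fold and 1.91-fold for these probes of Cd74 and 1.65-fold for H2-DMb1 (mMR027912). Other probes of these genes were lower in TAB over those days, at 0.63-fold (Cd74 PH_mM_0012569), 0.87-fold (H2-Eb1 PH_mM_0006643) and 0.75-fold (the probe shared by H2-DMb2 and H2-DMb1). With day 3 left out and the day block kept, H2-Aa, H2-Ab1, H2-Eb1 (PH_mM_0015054) and H2-DMa did not pass (limma adjusted p = 0.0779, 0.0930, 0.0737 and 0.0864). Without day 5 the log2 effects were smaller, at 0.60 for H2-Aa, 0.47 for H2-Ab1, 0.64 for H2-Eb1, 1.03 for H2-DMa, 0.40 for H2-DMb1, and 0.43 and 0.42 for these probes of Cd74. With the sham sample of day 3 left out and no day block, H2-Aa, H2-Ab1, H2-Eb1 (PH_mM_0015054) and H2-DMa passed the test as higher, with limma adjusted p of 0.0175, 0.0237, 0.00850 and 0.0215. With no day block and all samples kept, H2-Aa, H2-Eb1 and H2-DMa already passed (0.0265, 0.0225 and 0.0406), so leaving out the sample added H2-Ab1 alone. That alternative was chosen after the values of this sample had been seen. Whether day 3 after sham surgery or this 1 sample gave the level cannot be told apart.

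The difference between early days (3, 5 and 7) and late days (14 and 28) was tested as an interaction. No member probe passed, and none had an unadjusted p under 0.05, where 11% of all probes did. Of all 18074 probes, 0 passed the adjusted threshold in this limma fit. The largest log2 difference, early minus late, was 0.94 for Ciita (SE 1.00, limma adjusted p = 0.728), and H2-DMb1 was at 0.88 (SE 0.46, limma adjusted p = 0.519).

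The members fell into a group that moved together and probes that did not, a grouping made after the values were seen. Over the 10 samples, the log2 intensities of 7 probes (H2-Aa, H2-Ab1, H2-Eb1 PH_mM_0015054, H2-DMa, H2-DMb1 mMR027912 and 2 of Cd74) correlated pairwise with Pearson's r of 0.64 to 0.97, with a median of 0.87. Ciita correlated with these 7 at 0.57 to 0.77, but its spot was found on only 2 of the 10 arrays, so most of its values are background readings. H2-DMa, among the 7, was not found on the sham arrays of days 5 and 14. The 3 other probes (the second of H2-Eb1, the third of Cd74 and the one shared by H2-DMb2 and H2-DMb1) correlated with the 7 at −0.79 to 0.47, with a median of −0.17, and among themselves at 0.17 to 0.65. The samples share arrays and normalization across all probes, and the values are a description.

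The genes most like the mean class II profile outside the members, by Pearson's r over the 10 samples with the mean of the 9 standardized member probes found on all arrays, were Rbm10 (a probe shared with Gm15455, r = 0.941), Unc93b1 (0.907), Pole3 (0.886), Pde6g (0.861) and Lsm2 (0.859), from 12051 candidates. The 9 probes include the 3 that did not move with the others, so this mean mixes probes that went opposite ways. Unc93b1 brings nucleic acid-sensing Toll-like receptors to endosomes. None of the 5 was called, and their log2 TAB effects lay between 0.06 and 0.23.

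Of the genes that feed and control class II, some rose and some fell. Of 33 pathway symbols, 31 were on the array (the others, H2-Ea and Marchf1, are further names of H2-Ea-ps and March1) and 27 were kept, with 32 probes. Among these, 6 probes (18.75%) were called higher and 3 lower, where 8.88% and 7.64% of all probes were, and the median log2 effect was −0.02. The split moved with the setting, to 7 higher and 7 lower with dim probes or probes not found on any 1 array left out, and to 7 and 1 with the quantile step within each operation. Ifi30, a thiol reductase of the endosome, rose 3.31-fold (log2 effect 1.73, SE 0.37, limma adjusted p = 0.0335). Ctss, the protease that trims the invariant chain, rose 2.71-fold (1.44, SE 0.37, limma adjusted p = 0.0466), and Lgmn, an asparaginyl endopeptidase, rose 2.07-fold (1.05, SE 0.25, limma adjusted p = 0.0414). Cd86, a costimulator, rose 1.89-fold (0.92, SE 0.11, limma adjusted p = 0.0139) and Ifngr1, an interferon gamma receptor chain, 1.47-fold (0.56, SE 0.13, limma adjusted p = 0.0390). March1, a ligase that turns class II over, was the sixth, but its spot was found on no array of either operation, so it has no fold. Without day 3, day 5 or day 7, 0 of the 32 pathway probes passed, and without day 14 there was 1.

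On day 3, when the log2 ratios of the class II probes lay between −0.86 and 0.37, those of Ctss, Ifi30 and Lgmn were 1.20, 2.27 and 1.38. On day 28, when H2-Aa, H2-Ab1 and H2-Eb1 were at 0.70 to 0.88, they were at 0.34, 0.26 and 0.13. H2-DMb1 (mMR027912) was at −0.23 on that day and the third Cd74 probe at −0.56, so the members did not all stand above these genes. The difference between these 3 genes and the class II genes was not tested. The 3 pathway probes called lower were 1 of 2 probes of Jak1, a kinase of interferon receptors (−0.56, SE 0.12, limma adjusted p = 0.0303), 1 of 2 of Cd40 (−0.66, SE 0.15, limma adjusted p = 0.0378), and Nfya, a subunit of the Y box factor (−0.54, SE 0.13, limma adjusted p = 0.0418). The other probe of Jak1 gave 0.11 and that of Cd40 −0.18, and neither was called. Of the X box factors, Rfx5 was at −0.39 (limma adjusted p = 0.121), Rfxap at −0.31 (0.269) and the 2 probes of Rfxank at 0.14 and 0.03 (0.489 and 0.850). H2-Ea-ps, the E alpha gene as the array names it, was at −0.47 (limma adjusted p = 0.0827). Irf1, a transcription factor induced by interferon, had a log2 effect of −0.54 (limma adjusted p = 0.0648) and Icam1, an adhesion molecule, one of 0.81 (limma adjusted p = 0.0543). Ifng, H2-Ob and Cd80 did not pass the filter on low intensity.

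Of the class I presentation genes, 0 of 10 probes were called in either direction (8.88% of all probes were higher and 7.64% lower), and the median log2 effect was 0.50. At most 2 were called higher in an alternative setting (with trend and robust on). B2m, the light chain, was at 0.59 (SE 0.18, limma adjusted p = 0.0700). Its daily log2 ratios were 0.00, 0.75, 1.15, 0.65 and 0.38, in the order of the days. Tap1, a peptide transporter subunit that lies between the class II genes on chromosome 17, had its highest ratio on day 7, at 3.03, with 2.32 on day 5, and its average was 1.05 (SE 0.55, limma adjusted p = 0.229). Nlrc5, the class I counterpart of Ciita, was at 1.06 (SE 0.40, limma adjusted p = 0.118). H2-K1 and H2-D1 have no probe of their name.

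**Figure D4:**
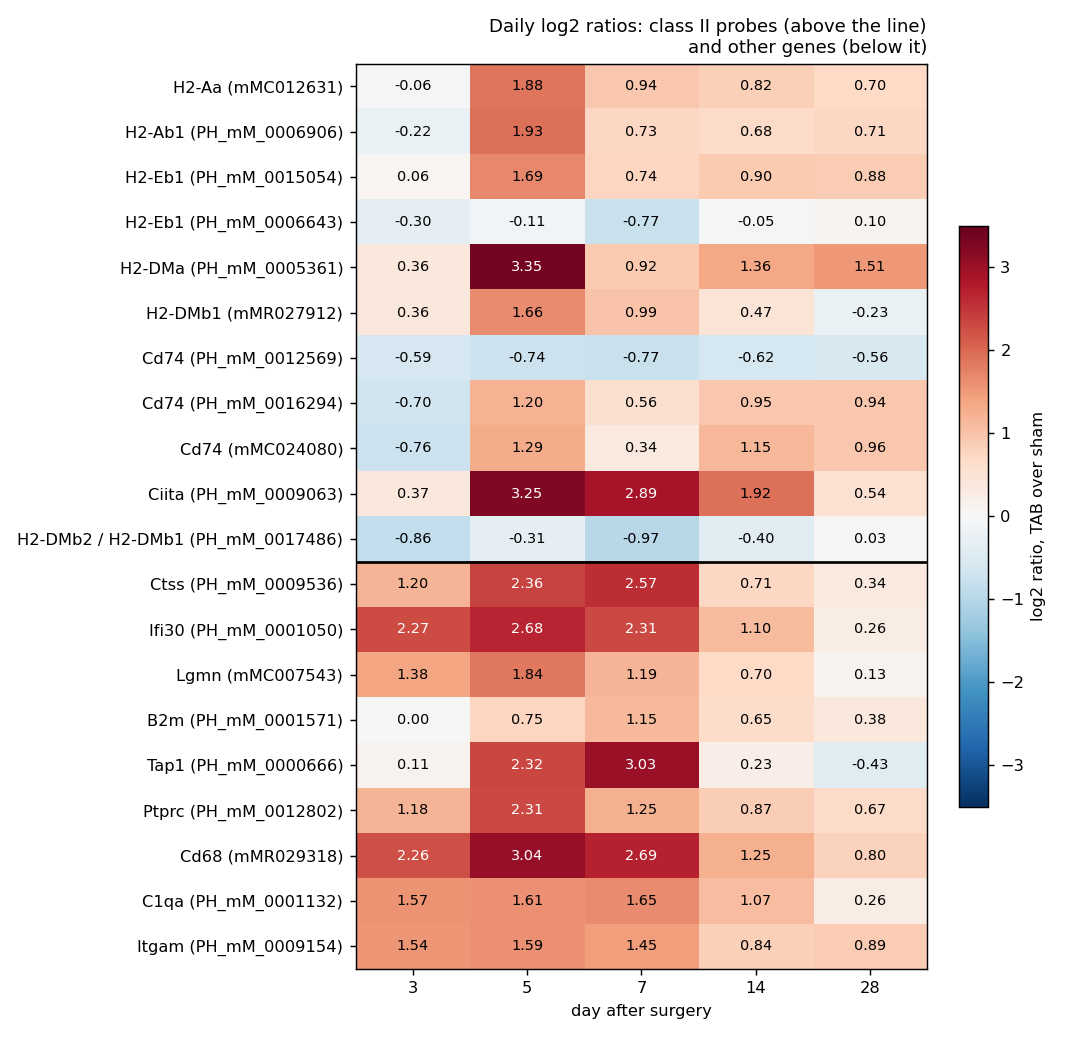
Log2 ratio of TAB over sham on each day, for the 11 member probes (above the line) and for chosen pathway, class I and leukocyte genes (below it). Red is higher in TAB, blue lower, and each cell is 1 pair of arrays. The pathway genes drawn (Ctss, Ifi30 and Lgmn) were called higher, and those called lower (Jak1, Cd40 and Nfya) are not drawn. On day 3 the class II probes lie between −0.86 and 0.37, whereas Ctss, Ifi30, Lgmn, Ptprc, Cd68, C1qa and Itgam lie between 1.18 and 2.27.

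Of the cells that could carry class II, macrophage and general leukocyte markers were higher in TAB. In bulk tissue, a larger number of such cells and more RNA in each cannot be told apart. Of 12 macrophage and monocyte probes, 11 were called higher, namely Cd68 (4.02-fold), 2 of Ccr2 (3.90-fold and 3.03-fold), C1qb (2.95-fold), C1qc (2.61-fold), Itgam (2.40-fold), C1qa (2.35-fold), Cd14 (2.11-fold), Mrc1 (1.90-fold), Csf1r (1.81-fold) and Mertk (1.46-fold), and their median log2 effect was 1.25. The count was 0 without day 3, day 5 or day 7 and 8 without day 14. Their summed intensity ranged from 12239 to 28745 in TAB and from 6908 to 8712 in sham, without overlap. For all lists, 8.88% of all probes were called higher and 7.64% lower. All 3 leukocyte probes rose, Laptm5 by 3.01-fold, Coro1a by 2.74-fold and Ptprc by 2.39-fold, with sums of 2235 to 6951 in TAB and 1088 to 1688 in sham. Adgre1 and Lyz2 have no probe of their name, and Fcgr1 did not pass the filter. The median log2 ratio of the macrophage probes was 1.44, 1.60, 1.55, 1.07 and 0.76, in the order of the days. That of the class II probes on day 3 was −0.22, and the difference between the lists was not tested.

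The sham sample of day 3 did not stand out in the macrophage list, where its sum of 8494 was the third of the 5, below 8712 on day 5 and 8576 on day 28. It was the highest sham sample in the leukocyte, dendritic, B cell, class I and pathway lists. Its cardiomyocyte sum of 188654 was the lowest of the 10 samples, against 211147 to 222447 in the other sham samples and 192560 to 204664 in TAB; it includes Myl2, which was saturated and cannot report its level. The part of these shifts in its class II level was not tested. Of 6 dendritic probes, Batf3 was called higher (1.70-fold, limma adjusted p = 0.0435), a call lost without day 3, 5, 7 or 14 and with probes below 1 set to 1. The count of dendritic probes called higher was 2 with no replicate block and 3 with trend and robust on. Their sums were 270 to 471 in TAB and 211 to 296 in sham. Itgax was found on 2 arrays only and Ccr7 on none, while Xcr1 and Clec9a did not pass the filter. Of 5 B cell probes, 0 were called, with sums of 633 to 799 in TAB and 648 to 874 in sham, and Ms4a1 did not pass the filter. In 4 alternative settings 2 of them were called lower, and in 3 of these and in the fit with no day block 1 was called higher. Of 7 T cell probes, Lck and Cd3d were called higher and Cd3e lower, but Lck was found on no sham array and Cd3d on no sham array and 2 TAB arrays, with sums of 297 to 384 in TAB and 326 to 468 in sham. No probe of endothelium (6), fibroblasts (3) or cardiomyocytes (6) was called. The fibroblast sums were 46986 to 60391 in TAB and 42076 to 46722 in sham, without overlap, over probes of 2 genes (Dcn and Tcf21), as Pdgfra and Col1a1 did not pass the filter. The part of any of these cells in the class II values was not tested.

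**Figure D5:**
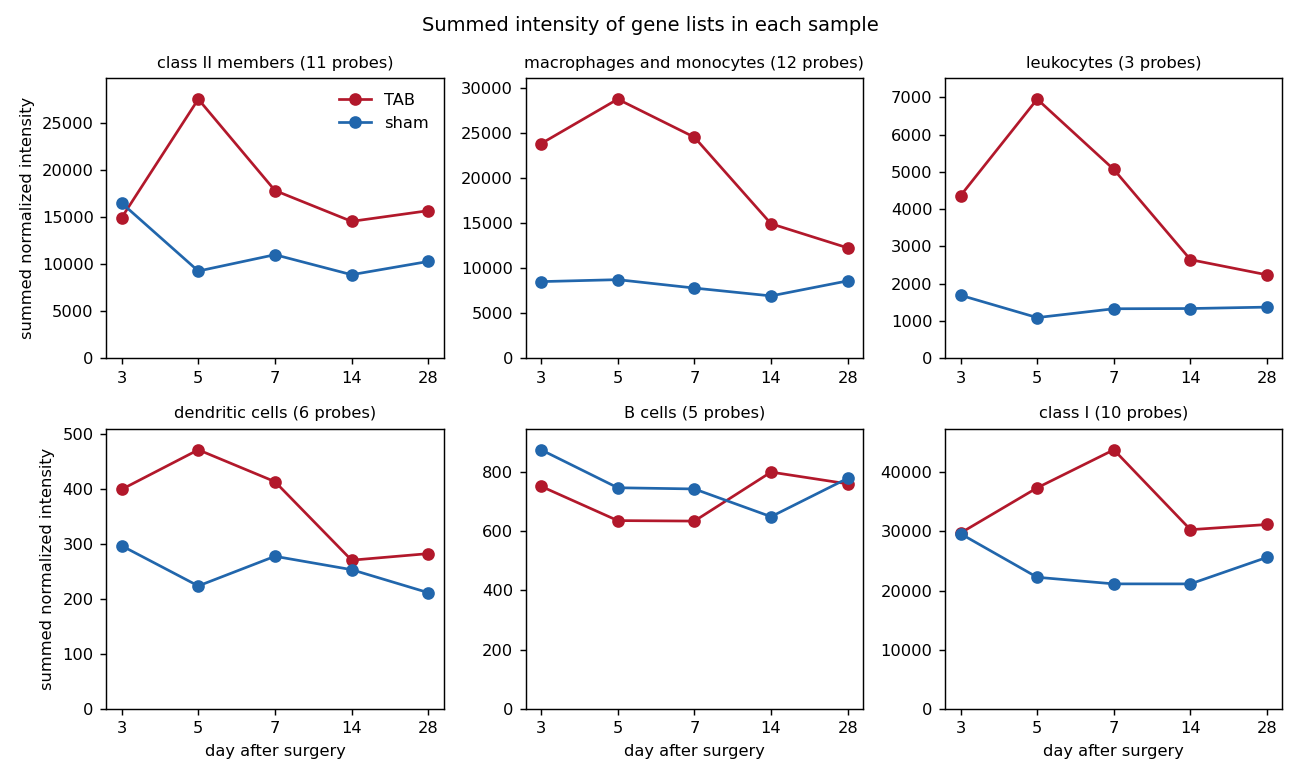
Summed normalized intensity in each sample for the class II members and 5 gene lists, TAB in red and sham in blue, by day after surgery; every axis starts at 0, and bright probes weigh most in a sum. The macrophage sum is above sham on all 5 days, and the class II sum of the sham sample of day 3 (16457) exceeds that of the TAB sample of the same day (14903).

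Facts of the arrays bear on these values as follows. The share of spots not found ranged from 40.2% to 47.3% over the 10 arrays, and the raw median intensity from 34 to 57. The TAB array of day 3, on which the ratios of that day rest, had both the highest share not found and the lowest median, the other arrays having medians of 42 or more. The ventricle markers Myh6, Tnnt2, Actc1, Myl2, Tnni3 and Ryr2 were found on all arrays, with Myl2 saturated on the arrays. The atrial genes Myl7 and Sln, at sums of 1078 to 2544 in TAB and 2560 to 5623 in sham, were not called. Of all 18074 probes, 1605 were called higher and 1380 lower (16.5% in all). Without day 3 these counts were 27 and 1, without day 5 they were 87 and 12, without day 7 they were 24 and 2, and without day 14 they were 602 and 413.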

How the data were processed

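The authors deposited, per probe and sample, a raw intensity read in 1 colour (GenePix, Agilent scanner), background-subtracted by a method not given in the sources used here and not scaled between arrays. The deposited detection p-value went unused. The deposited flag is not explained in the sources used here; a negative flag was taken to mark a spot that GenePix had not found.

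Much as in the study's methods, arrays were median-scaled, 6447 probes with a scaled value under 1 on some array were dropped, and the rest was quantile normalized (median of each rank over the 10 samples) and log2-transformed. The study's methods word the rank medians as taken for each condition; that was run as an alternative. Each probe was tested separately in R 4.3.3 with limma 3.58.1 (lmFit and eBayes), with a block for each day. Benjamini-Hochberg adjustment ran over 18074 probes with a symbol, at 0.05; 3633 probes of the array had no symbol. The blocks are the days after surgery, which the study's ratios also use; across probes, the departures of same-day samples from their operation's mean had r = 0.128, −0.00599, 0.0420, 0.0139 and 0.0282 on days 3, 5, 7, 14 and 28. A fit with no block was among the alternatives. A probe not found on any array of a group had only a bound there: the higher of its value and the lowest intensity among found probes on each array. The scripts were tested on simulated data. The number of arrays limits the precision.

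All member probes were named; pathway and marker genes were named where called, and otherwise for size or brightness. The members and lists were chosen with earlier results of these data known. Promoters came from RefSeq (GRCm38.p6), and were searched with Python 3.11.15, numpy 2.4.6 and pandas 2.3.3; the build of the array's annotation is not given in the sources used here. The miRNA arrays were not analysed here. Some genes of the lists are not reported here by name.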

Additional observations from a re-analysis of the deposited data

Results flagged for a closer look

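For the H2-Eb1 probe PH_mM_0015054, 1 sample of each operation lay far from the other 4. The TAB sample of day 5 had a normalized intensity of 4819, and on the log2 scale its gap to the next TAB sample was 0.767 of the whole range of the TAB group. The sham sample of day 3 had 3030, with a gap of 0.747 of the log2 range of the sham group. The limit is 0.71 for 5 samples. Such a gap was sought for both operations and all 11 member probes, 22 groups in all, and chance passes the limit in about 1 of 20 groups; on the log2 scale these 2 were the ones past it.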

How the results depend on the processing

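Each of the 11 effects kept its direction under every alternative that gave it a value (15 to 17 each), except the mean of all probes of a gene, which turned the dim H2-Eb1 probe PH_mM_0006643 to 0.31 and Cd74 PH_mM_0012569 to 0.18, since it averages them with the other probes of their gene. No member was called higher in the main fit, and the count was 3 with no replicate block (H2-Aa, H2-Eb1 and H2-DMa). With the day block kept, it was 2 with median scaling only, with normalization within each operation or with the lowest tertile left out. It was 3 with 50 added or with probes not found on any 1 array left out, and 4 with trend and robust on, also with the day block. It was 4 without the sham sample of day 3 (no block, chosen after seeing the data), and 0 to 1 with a day left out. H2-Eb1 PH_mM_0015054 passed in 8 of its 17 alternatives and H2-Aa in 7 of 17, with limma adjusted p of 0.00850 to 0.220 and 0.0175 to 0.177. Members called lower were 2 with 50 added, the tertile left out, probes not found left out, or trend and robust on, 0 with the probe of largest summed ratio or the mean of probes, and 0 to 1 with a day left out. Over all probes, calls of higher fell to 537 with probes below 1 set to 1, and were 27, 87, 24, 602 and 1588 without day 3, 5, 7, 14 and 28. Calls of lower were 918 with median scaling only, 277 with probes below 1 set to 1, 2339 with 50 added, 2143 with the tertile left out, 2153 with probes not found left out, 2265 with trend and robust on, 1029 with normalization within each operation, and 1, 12, 2, 413 and 1364 without day 3, 5, 7, 14 and 28. Macrophage probes called higher were 11 with all days and 0 to 11 with a day left out (0 without day 3, 5 or 7), and pathway probes 6 and 0 to 6; with probes below 1 set to 1 they were 6 and 1. Pathway probes called lower were 3, and 0 to 7 over the alternatives; B cell probes called lower were 2 with 50 added, the tertile or unfound probes left out, or trend and robust on, B cell probes called higher 0 to 1, and class I probes called higher 0 to 2. The early minus late test gave 10, 10, 16 and 36 probes with 50 added, the tertile left out, probes not found left out, and trend and robust on. Its sign turned without day 5 for H2-Aa (−0.32), H2-DMa (−0.80) and H2-Ab1 (−0.44), and for H2-Eb1 PH_mM_0015054 with median scaling only (0.029) and without day 3 (0.32); none of these was called. Where not stated, the cause was not tested. Low signal over background limits Ciita and H2-DMa: both drop out when unfound or dim probes are left out, as does H2-Eb1 PH_mM_0006643 with dim probes.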
